A study of Homo sapiens with 4 samples.

Results

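The genes described here encode the AMP-activated protein kinase (AMPK) and the kinases that switch it on. They are the catalytic alpha subunit genes PRKAA1 and PRKAA2, the scaffold beta subunit genes PRKAB1 and PRKAB2, the nucleotide-sensing gamma subunit genes PRKAG1, PRKAG2 and PRKAG3, and the upstream kinase genes STK11 (LKB1) and CAMKK2. These 9 genes were listed by name, of 20033 protein-coding genes on the assembled chromosomes, and all 9 were found in the RefSeq tables. Every peak of transcription factor SPIB was taken whose summit lay in the gene span or within 5 kb of it, which gave 1 peak in attached and 12 peaks in suspended cells. SPIB, an ETS factor best known for its work in B cells, was mapped by chromatin immunoprecipitation with sequencing (ChIP-seq) in H1703 cells made to overexpress SPIB, with the anti-FLAG M2 antibody. H1703 is an established line from a human squamous carcinoma of the lung. All libraries came from SPIB-overexpressing cells, so no cells without added SPIB serve as a control. Attached cells gave 1 ChIP library and 1 input library (DNA with no antibody step), and suspended cells likewise, 4 libraries in all. The treatment label names 24 h of suspension even for the libraries labelled attached, and groups follow the condition label. The labels do not say whether the cells were a clone or which promoter drove SPIB, and the files hold no expression values with which to check the cell type.

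AMPK is a complex of 1 alpha, 1 beta and 1 gamma subunit. When ATP runs low, AMP and ADP bind the gamma subunit, and the alpha subunit is held in the form phosphorylated by LKB1. CaMKK2 phosphorylates the same site when calcium rises. Active AMPK turns on catabolism and autophagy, in part through the kinase ULK1, and restrains synthesis of lipid and protein. In cells that lose contact with their matrix AMPK is known to be activated, and STK11 is often lost in lung cancer. The study's title links SPIB to resistance to anoikis, the death of detached cells, and to the autolysosome, so these genes are read here for SPIB peaks in attached and in detached cells.

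With 1 library per condition nothing below has a replicate check, and no p-value between conditions is given. Depth after filtering was 21108364 ChIP and 15878452 input tags in attached cells, and 20766909 ChIP and 21437074 input tags in suspended cells. The authors listed 462 attached and 9024 suspended peaks, with a median of 18 and 15 tags each. Of the attached peaks, 305 (66.0%) carried an authors' false discovery rate (FDR) of 100%, while the highest FDR in the suspended list was 6.42%. No listed peak held fewer than 8 tags. A gene without a listed peak is therefore not shown to be unbound.

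The sequences around the start sites are shown first, because the main contrast between members is whether a peak covers the start. RefSeq (GRCh38.p14) promoter windows run from 250 bases before to 50 after a start, and only bases ahead of the gene's outermost annotated end and outside other protein-coding genes are printed. Capitals mark GGAA, the core that ETS factors contact, or its reverse complement TTCC. The PRKAA1 stretch lies inside the peak of both conditions, the PRKAG1 stretch lies beside a suspended peak, and the STK11 stretch lies before a peak further inside the gene.
PRKAA1 (chr5:40798375-40798427, minus strand): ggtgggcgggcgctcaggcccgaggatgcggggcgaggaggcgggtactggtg
PRKAG1 (chr12:49018777-49018977, minus strand): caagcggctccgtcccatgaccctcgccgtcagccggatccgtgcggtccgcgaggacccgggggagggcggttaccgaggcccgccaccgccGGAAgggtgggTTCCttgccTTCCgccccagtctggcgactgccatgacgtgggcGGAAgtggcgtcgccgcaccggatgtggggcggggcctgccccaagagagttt
STK11 (chr19:1205528-1205777, plus strand): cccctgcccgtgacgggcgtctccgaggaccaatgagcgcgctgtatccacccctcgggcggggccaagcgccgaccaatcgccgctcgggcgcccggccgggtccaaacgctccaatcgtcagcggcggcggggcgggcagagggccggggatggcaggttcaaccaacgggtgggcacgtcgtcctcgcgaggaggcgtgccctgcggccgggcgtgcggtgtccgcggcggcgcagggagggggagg
All of these stretches are rich in G and C, at 77.4%, 72.1% and 76.0%. The PRKAA1 and STK11 stretches, of 53 and 250 bases, hold no GGAA on either strand. The PRKAG1 stretch, of 201 bases, holds 4. Counts over such unlike lengths cannot be set against each other. The PRKAA1 stretch is a small part of both peaks and holds neither summit. Most of the sequence under those peaks was not available, so its GGAA content is not known here.

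Catalytic alpha subunits. PRKAA1, which encodes alpha-1, was the member with the most SPIB tags and the single one with a peak in attached cells. It spans chromosome 5, 40759389 to 40798374 (minus strand). In attached cells 1 peak, at 40798332 to 40798908, held 45 tags (exact Poisson 95% interval 32.8 to 60.2) in 577 bp. In suspended cells the peak at 40797456 to 40798989 held 172 tags (147.3 to 199.7) in 1534 bp. The attached peak thus lies wholly within the suspended one. These intervals do not overlap, but they cover counting error only and belong to peaks of unlike width.

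Both peaks are at the beginning of PRKAA1. The suspended peak ran from 812 bp before to 721 bp after the annotated start site, and its summit was 293 bp after it. The attached peak ran from 731 to 155 bp before the start, with its summit 565 bp before it. Hence the summits lay 858 bp apart on opposite sides of the start, the largest shift among the 210 attached peaks that overlap a suspended one, where the median was 23.5 bp. MACS gives 1 summit per peak, so further maxima within the wide suspended peak are not recorded in the list.

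By tags the suspended start peak ranked 19 of 9024 in its list, by score 47 and by width 49. Among the 2317 suspended peaks with a summit within 1 kb of a protein-coding start it ranked 6 by tags, against a median of 23 tags and 376 bp. The attached peak ranked 29 of 462 by tags and 12 of the 115 near protein-coding starts. Its score was 53.65, rank 325, and its FDR was 100%. In the attached list the PRKAA1 start therefore stood high in tags and low in the authors' confidence.

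The authors' fold over local background told a different order from the tags. It was 7.11 in attached cells, lower than for all but 2.6% of that list, and 5.35 in suspended cells, where 8.99% of peaks were lower. Per 1000000 filtered ChIP tags of the library, the attached peak held 2.13 tags over 577 bp and the suspended peak 8.28 over 1534 bp. Their ratio was 3.89 (Clopper-Pearson 95% interval of the tag counts 2.78 to 5.52). It was the third highest ratio of the 210 sites in both lists, whose median was 1.36. Attached tags outside the narrower peak are not listed, so the ratio compares 2 peaks of unlike width and not the same bases. The suspended peak was also 2.66 times as wide (rank 9, median of all such sites 1.19). Per bp of peak the ratio was 1.46 (1.05 to 2.08), rank 31 against a median of 1.1. The ratio of the folds was 0.752, so the direction between conditions depends on whether tags or fold over input are read. A lower fold in suspended cells was common, at 140 of the 210 sites (66.7%).

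**Figure D1:**
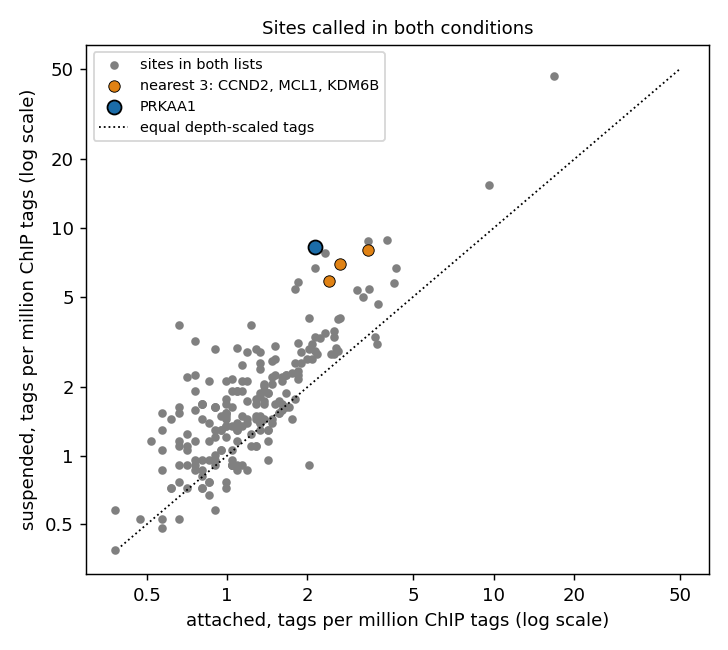
Depth-scaled tags of the 210 sites called in both conditions, attached on the x axis and suspended on the y axis, in tags per 1000000 filtered ChIP tags on log scales. The PRKAA1 start sits above the dotted line of equal values, at 2.13 and 8.28, beside the sites of CCND2, MCL1 and KDM6B.

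The sites most like the PRKAA1 start in their tags were found by distance on the log2 scale over the 2 conditions, among the other sites in both lists with a protein-coding gene within 5 kb. The nearest lay at CCND2 (cyclin D2), with 56 attached and 144 suspended tags. Next came MCL1, an anti-apoptotic BCL2 relative, with 51 and 122 tags, and KDM6B, a histone demethylase gene, with 71 and 167. At all 3 the suspended peak was the wider, at 2085, 1460 and 1764 bp against 781, 460 and 705 bp. None of these 3 reached the PRKAA1 ratio, with 2.61, 2.43 and 2.39. Over 2 values per site this likeness is a description.

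Suspended cells had 3 further peaks in or near PRKAA1. The peak at 40755490 to 40756313 held 70 tags (54.6 to 88.4) at a fold of 6.09 and ranked 498 by score. Its summit lay 3590 bp past the 3′ end of PRKAA1 but 162 bp inside the start of TTC33, the next gene downstream, which is read from the same strand. A peak at 40766838 to 40767183 held 20 tags (12.2 to 30.9), and a peak at 40770160 to 40770447 held 19 (11.4 to 29.7). Both lie inside PRKAA1, 7699 and 10939 bp before its 3′ end, and also inside LOC124900968, a long noncoding RNA gene on the opposite strand. ChIP tags do not tell which of these overlapping genes a peak belongs to. Having 4 or more summits in the gene or within 5 kb was rare, at 0.779% of protein-coding genes in suspended cells. The limit of 4 is the count of PRKAA1 itself, which is reached only with the peak at the start of TTC33. The share is not split by gene span. The other 7 peaks within 1 Mb of PRKAA1 held 10 to 117 tags with a median of 16. Other sites in both lists on the short arm of chromosome 5, where PRKAA1 lies, were picked out after their values were seen. Their suspended peaks also had many tags, a large width and a low fold. At OSMR, a cytokine receptor gene, the suspended peak held 183 tags in 1824 bp at a fold of 6.66. At HMGCS1, a cholesterol synthesis gene, it held 139 tags in 1443 bp at a fold of 5.24, with the summits 638 bp apart. ZFR had 112 tags in 1354 bp at a fold of 3.65, and the site at NSUN2 and SRD5A1 had 111 in 1107 bp at 3.45. A wide peak of many tags and low fold was therefore not particular to PRKAA1. The ratios of depth-scaled tags at these 4 sites were 2.21, 1.55, 1.58 and 1.74, below the 3.89 of PRKAA1. Not every short-arm site in both lists was alike. MARCHF11 held 69 suspended tags in 776 bp at a fold of 14.41, and a site at 14628424 held 19. On the long arm no site in both lists held more than 61 suspended tags, the count at CPLX2. Whether the many tags at PRKAA1 belong to the gene or to the arm was not tested.

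**Figure D2:**
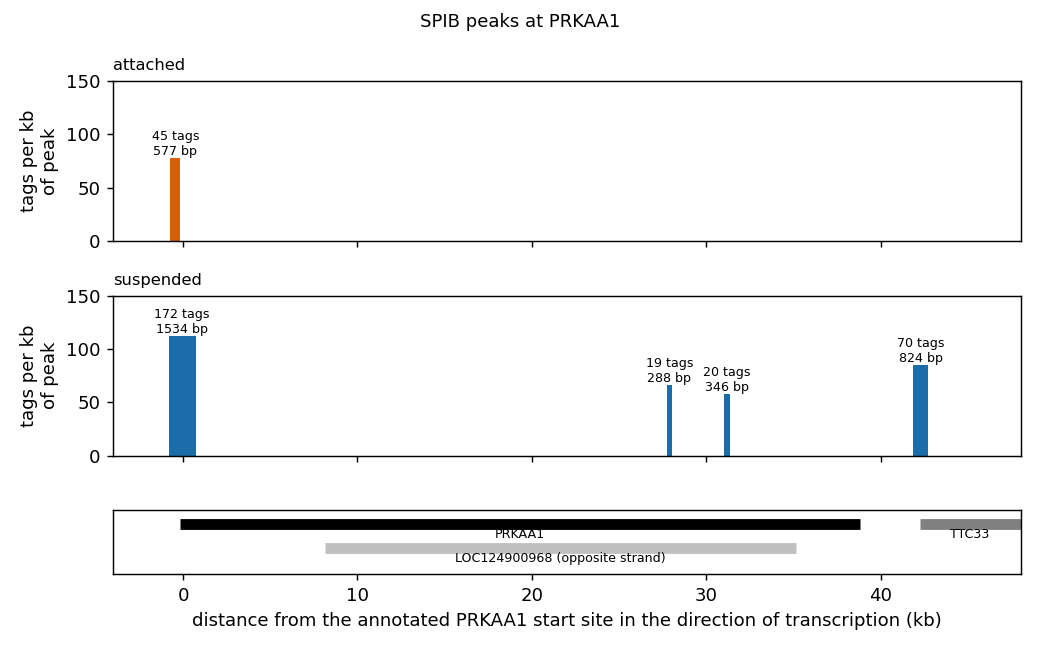
Peaks at PRKAA1 by distance from its annotated start in the direction of transcription (kb), with bar height as tags per kb of peak and bar width as peak width, for attached (top) and suspended cells (middle), and gene spans below. The start has a peak in both conditions (45 and 172 tags), and the peaks of 19, 20 and 70 tags further along are in the suspended list.

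PRKAA2, which encodes the other catalytic subunit, alpha-2, had no peak in either list. It spans chromosome 1, 56645314 to 56715335. The nearest suspended summit was 1430828 bp away and the nearest attached one 4635582 bp. An absence of suspended peaks within 1 Mb was shared by 5.56% of protein-coding genes, where the median was 9 peaks. The alpha genes thus differed, with 281 suspended tags in 4 peaks in or near PRKAA1 and none listed at PRKAA2, as at 3 other members. The 281 include 70 tags of the peak at the start of TTC33, and the 20 and 19 of the peaks shared with LOC124900968.

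Scaffold beta subunits. The beta subunits hold the complex together and bind glycogen. PRKAB1 (chromosome 12, 119667952 to 119681619) and PRKAB2 (chromosome 1, 147155106 to 147172470) had no peak in either condition. The nearest suspended summit was 121728 bp from PRKAB1 and 22049 bp from PRKAB2. Peaks were not sparse around them, with 10 and 12 suspended peaks within 1 Mb, close to the median of 9. Beta was the subunit class with no listed peak in either gene, but having none was common. Of protein-coding genes of like span (8539 to 24130 bp), 26.0% had a suspended and 1.12% an attached peak.

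Nucleotide-sensing gamma subunits. PRKAG1, which encodes gamma-1, had no attached peak and 1 suspended peak at its start. The gene spans chromosome 12, 49002274 to 49018776. The peak, at 49018305 to 49018659, held 20 tags (12.2 to 30.9) at a fold of 6.37 and an FDR of 4.37%. Its summit lay 262 bp after the start site, and its edge was 68 bp from the promoter window, so it does not cover the PRKAG1 stretch printed above. By tags it ranked 1373 of the 2317 peaks near protein-coding starts and was thus an ordinary peak of that class. The summit also lies inside the noncoding gene DDN-AS1 and 464 bp past the 3′ end of KMT2D, a histone methyltransferase gene.

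PRKAG2, which encodes gamma-2 and is mutated in an inherited heart disease, is the longest member, at 320989 bp (chromosome 7, 151556127 to 151877115). It had no attached and 5 suspended peaks, the most of any member, but weak ones. They held 9, 10, 12, 9 and 15 tags, of which 4 are under the list median of 15. The strongest by score, at 151637981 to 151638273, had 15 tags (8.4 to 24.7), a fold of 9.36 and an FDR of 1.78%. It lay 5009 bp before an internal start site, the closest any of them came to one of the 5 annotated starts. The peak at a gene end, at 151555599 to 151555773, held 9 tags (4.12 to 17.1) and lay 479 bp past the 3′ end, so it is not a start-site peak. Of 693 protein-coding genes at least as long as PRKAG2, 341 (49.2%) had a suspended peak and 19 (2.74%) had 5 or more. The 5 peaks of PRKAG2 together held 55 tags, fewer than the single start peak of PRKAA1.

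PRKAG3, the gamma subunit gene known from skeletal muscle, spans chromosome 2, 218822308 to 218831803, and had no peak in either list. It lay in the most peak-rich surroundings of any member, with 39 suspended and 3 attached peaks within 1 Mb. Of protein-coding genes, 2.56% had as many suspended peaks or more around them. The nearest suspended summit was 16117 bp away, which is the closest miss among the 4 members without a peak.

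Upstream kinases. STK11 and CAMKK2 each had 1 suspended and no attached peak, inside the gene and beyond 1 kb of the start. STK11 spans chromosome 19, 1205778 to 1228431. Its peak, at 1207376 to 1207744, held 20 tags (12.2 to 30.9) and lay 1840 bp after the start, at a fold of 5.17 and an FDR of 6.34%. With a score of 50.29 it ranked 8867 of 9024, near the authors' limit for calling a peak. Within 1 Mb of STK11 there were 32 suspended peaks, more than for 94.5% of protein-coding genes.

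CAMKK2 spans chromosome 12, 121237692 to 121297819. Its peak, at 121295414 to 121295717, held 19 tags (11.4 to 29.7) at a fold of 7.02. The FDR was 1.05% and the rank by score 1524. It was the member peak with the third highest score, after the suspended PRKAA1 start peak and the peak at the start of TTC33. The summit lay 2271 bp from the gene's outermost 5′ end and 1161 bp after the annotated start site. The STK11 and CAMKK2 tag counts cannot be told apart by their intervals, though their scores differ widely.

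**Figure D3:**
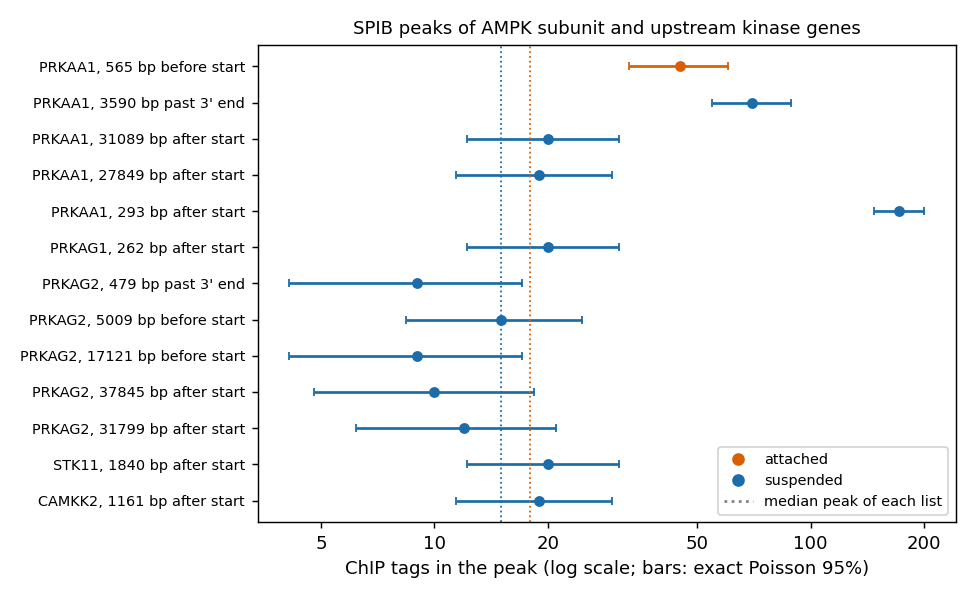
ChIP tags of the 13 listed peaks of the AMPK genes on a log axis, with exact Poisson 95% intervals, attached in orange and suspended in blue, and dotted lines at the median peak of each list (18 and 15 tags). The PRKAA1 start peaks (45 and 172 tags) and the peak past its 3′ end (70 tags) stand to the right, and the PRKAG2 peaks (9 to 15 tags) to the left.

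Set against the whole suspended list, the 12 member peaks had a median of 19 tags, where all peaks had 15, and a median fold of 7.05, where all had 9.1. Of these peaks, 7 exceeded the list's median tags and 4 its median fold. Those 4 all belong to PRKAG2, whose peaks were low in tags. Conversely, the PRKAA1 start had the most tags and, with STK11, one of the 2 lowest folds. In position 10 summits lay inside their gene and 2 past a 3′ end.

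**Figure D4:**
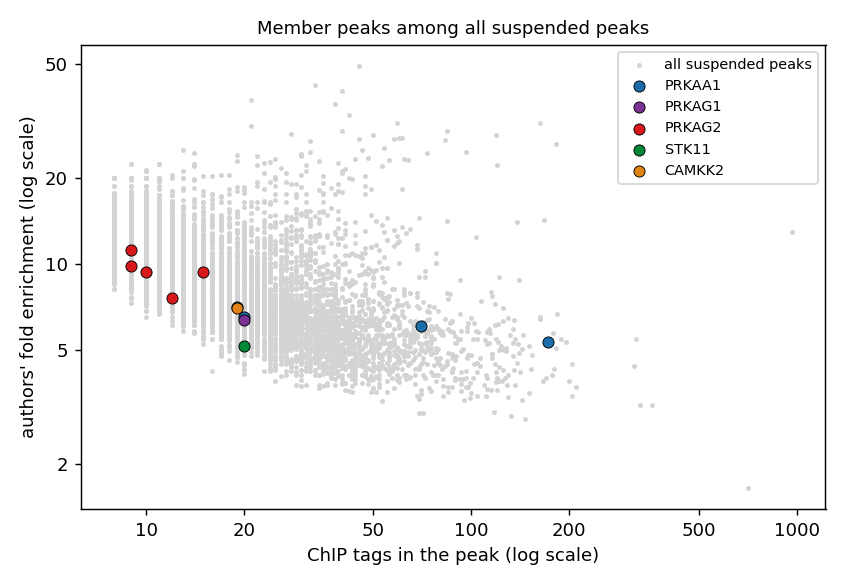
Tags (x axis) against the authors' fold enrichment (y axis) of all 9024 suspended peaks in grey, both on log scales, with the 12 member peaks coloured by gene. PRKAG2 peaks lie at the upper left (9 to 15 tags, fold 7.59 to 11.17) and the PRKAA1 start at the lower right (172 tags, fold 5.35).

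Counted by gene, 5 of the 9 members (55.6%) had a suspended peak, namely PRKAA1, PRKAG1, PRKAG2, STK11 and CAMKK2. Over all protein-coding genes the share was 28.6%. In attached cells 1 of 9 (11.1%) had one, against 1.86%. The suspended share was higher for longer genes. With protein-coding genes ordered by span and cut into 4 equal classes, it was 18.1% in class 1, the shortest (up to 8538 bp), and 39.2% in class 4, the longest (from 65159 bp). Of the members, 5 are in class 2 (26.0%), PRKAA1 and CAMKK2 in class 3 (31.1%) and PRKAA2 and PRKAG2 in class 4. Within 1 kb of a gene end 3 members had a suspended peak (33.3%, background 13.8%) and 1 an attached one (11.1%, background 0.809%). At annotated start sites, a reading added after the PRKAG2 peak was seen to lie at the 3′ end, the suspended count was 2 of 9 (22.2%, background 14.7%), PRKAA1 and PRKAG1. The attached count there was again PRKAA1 alone (background 0.77%). With 9 genes 1 member is worth 11.1 percentage points, and these counts are given as a description. The members were chosen with earlier results of these data known, so the shares are not independent of the peaks.

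GGAA was found in member windows with and without a peak. Of all 35116 RefSeq windows 95.5% held GGAA on either strand, with a median of 3 matches, and 27.9% held GAGGAA, a longer form close to the SPIB site that contains GGAA. Among the 2140 windows overlapped by a suspended peak these shares were 97.5% and 34.4%, and among the 100 overlapped by an attached peak 99.0% and 47.0%. The PRKAA1 window was the single one of the 13 member windows that a peak overlapped. Of all windows, 2140 of 35116 lay under a suspended peak and 100 under an attached one. The PRKAA1 window held 1 GGAA match and no GAGGAA. PRKAG1 and PRKAB1 held 7 and 6 GGAA matches with no peak over the window. GAGGAA occurred in the windows of PRKAB2, PRKAG1 and 3 of the 5 PRKAG2 starts. GC content was high where peaks lay, with a median of 65.7% in windows under suspended peaks and 58.7% in all, and the PRKAA1 window had 77.0%. Member windows without a peak reached higher values, with 86.0% at 1 of the PRKAG2 starts, 82.7% at PRKAA2 and 81.3% at CAMKK2. The part of GC content in the peak calls was not tested. A match is a string of letters and not a bound site.

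The wider pathway was read from a list of 49 further genes, also chosen with earlier results of these data known. In suspended cells 16 of them (32.7%) had a peak, near the background of 28.6%, and in attached cells 3 (6.12%), CAB39, SESN1 and ULK1, against 1.86%. Partners of LKB1 came first. CAB39 encodes the scaffold MO25 of the LKB1 complex, and its attached peak held 24 tags (15.4 to 35.7) 131 bp from the start, at an FDR of 100%, with no suspended peak listed. CAB39L had a suspended peak of 8 tags 392 bp from its end but 42914 bp from its annotated start, and nearer, at 182 bp, to the start of SETDB2-PHF11. STRADA had 1 suspended peak and STRADB none. The STRADA peak lay outside the gene, 3300 bp from its nearest end and 593 bp from the start of LIMD2, at an FDR of 5.7%. The 5 other upstream kinases and phosphatases, among them CAMKK1 and MAP3K7 (TAK1), had none in either list.

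Among the 13 AMPK-related kinases, which LKB1 also activates in most cases, MARK3 (9 tags, fold 16.15) and MARK4 (2 peaks, 21 and 8 tags) had suspended peaks, a share of 15.4%. Of 6 AMPK regulators, FNIP1 had a suspended peak. SESN1, a stress-induced sestrin gene, had an attached peak of 12 tags at an FDR of 100% and none in suspended cells. Of 10 metabolic substrates 3 had a suspended peak, near the 28.6% of all protein-coding genes. They included TXNIP, a brake on glucose uptake, with 18 tags 265 bp from its start, and TBC1D4 with 8 tags and a fold of 11.7.

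Of substrates tied to growth and autophagy 3 of 5 genes had a suspended peak, and of those tied to transcription 5 of 6, where the share of protein-coding genes was 28.6%. In lists this short 1 gene moves the share widely. The shares are not split by gene span, though longer protein-coding genes more often had a suspended peak. The 5 include CRTC2, whose peaks both lie outside the gene, 532 bp from the start of DENND4B and 2 bp from that of SLC39A1. RPTOR, the mTORC1 subunit that AMPK phosphorylates, had 31 tags (21.1 to 44.0) 92 bp from its start. ULK1, which starts autophagy, had 11 tags 490 bp from its start, and a second site 5890 bp from the gene's far end with 12 tags (6.2 to 21.0). That second site was also in the attached list, with 19 tags (11.4 to 29.7) at an FDR of 100%. These tag intervals overlap. MFF, a mitochondrial fission receptor, had 8 tags 541 bp beyond an end of the gene and 29699 bp from its start. SREBF1, the lipid synthesis regulator, had 4 peaks, the largest of 75 tags (59.0 to 94.0) in 1026 bp, 970 bp from its start. PPARGC1A had 8 tags at a fold of 11.7, well inside the gene. None of the 49 genes had a suspended peak with as many tags as the PRKAA1 start.

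**Figure D5:**
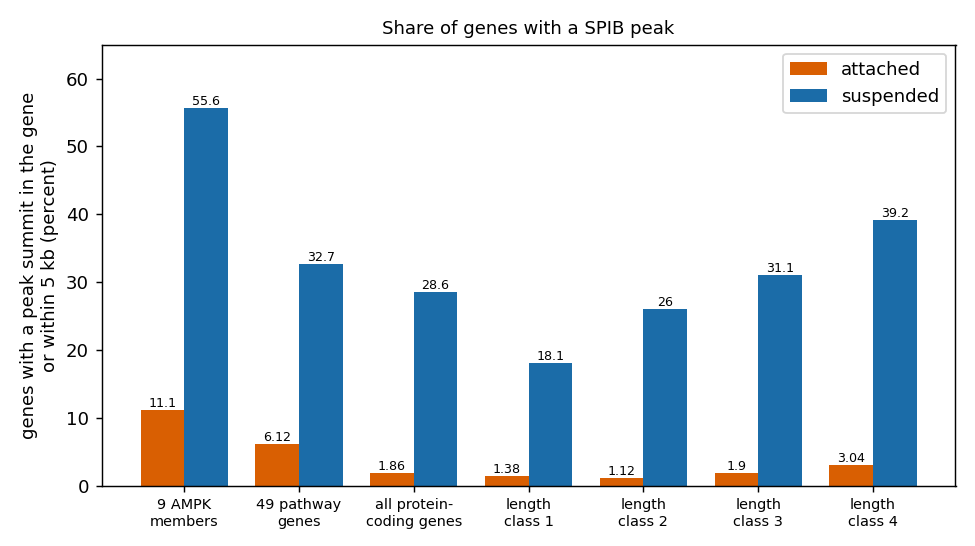
Percent of genes with a SPIB peak summit in the gene or within 5 kb, attached in orange and suspended in blue, for the 9 AMPK members, the 49 pathway genes, all protein-coding genes and these split into 4 equal classes by gene span. The members stand at 11.1% and 55.6%, the pathway genes at 6.12% and 32.7%, and the background at 1.86% and 28.6%.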

How the data were processed

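The authors ran MACS 1.4.2 on each ChIP library with the input of the same condition as control, a p cutoff of 1e-05 and 1 tag kept per position, per the file headers. The modelled fragment length was 58 bp (attached) and 63 bp (suspended), near the tag size of 50 bp, per the file headers. The submitters' processing notes name hg38 as the build. No aligner is named in the sources used here. The deposited tags are counts per peak and are not normalized. Fold is the authors' ratio over local background. The authors' score is read as 10 times the negative log10 of the p-value, since its column name was lost. The authors' FDR is a percent. Fold, score and FDR are used within a list, except that folds are set side by side at sites called in both conditions, where tags are compared as well.

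Gene spans and start sites came from RefSeq tables for GRCh38.p14. The promoter table gave starts for 15842 protein-coding genes. The tables give no exons, so peaks are placed by gene span and start. A peak in both lists overlapped by at least 1 bp. Python 3.11.15, pandas 2.3.3, SciPy 1.17.1 and matplotlib 3.10.9 were used. Counting of peaks per gene was tested on simulated data. Intervals cover counting error only. Members, lists and the rule for named genes were chosen with earlier results of these data known. The rule named all members, pathway genes with an attached peak or one within 1 kb of an end, 4 further ones by fold, the 3 sites nearest in tags, and genes sharing a member's peak. STRADA, STRADB, FNIP1, CAMKK1, MAP3K7, CRTC2 and the other sites on chromosome 5 were named outside it, after their values were seen. So were the genes whose starts lay nearer to a pathway peak. The effect of other flanks, distances, thresholds and overlap rules is given in the closing section.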

Additional observations from a re-analysis of the deposited data

How the results depend on the processing

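The 5 suspended members did not change in number with flanks of 0, 1 or 10 kb or when any overlap of the peak was counted, and 4 were left at an FDR of at most 5%. They became 3 above the list's median score and 1 at a score limit of 100. The attached member count became 0 without a flank, at an FDR of at most 5%, at a score limit of 100 and above the list's median score, and the attached gene-end count became 0 at that FDR. The pathway counts fell to 9 (above the median score) and 1 (score limit of 100) in suspended cells, and to 1 (above the median score), 0 (FDR) and 0 (score limit) in attached cells. A stricter limit keeps fewer peaks by construction. No share over all protein-coding genes is given at these limits, so the counts do not show whether these genes fall faster or slower than others. The site of PRKAA1 in both lists was lost (0) where summits had to lie within 100 bp, because its summits are 858 bp apart. Its ratio of 3.89 became 1.46 per bp of peak and reversed to 0.752 for fold enrichment. Of 41 alternatives, 26 left the value within 1.5 times or within its counting interval. No paired analysis was possible because each group has 1 library. Depth limits single peaks of 8 to 20 tags most, and binding below the authors' limit is not recorded in the lists.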
